A study of Homo sapiens with 8 samples.

Results

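The genes examined here were 10 genes of double-stranded RNA sensing and interferon induction: the sensors DDX58 (RIG-I), IFIH1 (MDA5), DHX58 (LGP2), TLR3 and EIF2AK2 (PKR), the adaptor MAVS, the transcription factors IRF3 and IRF7, the cytokine gene IFNB1, and the RNA editing enzyme ADAR. They were chosen by name among the 34423 gene names on the array, and all 10 were present, with 19 probes of 60 bases. Of these, 18 probes and 9 genes could be tested, while the only probe of IFNB1 was not well above background on any array.

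Double-stranded RNA in a cell is read as a sign of virus infection. RIG-I and MDA5 bind it in the cytoplasm and pass the signal to MAVS on mitochondria, while TLR3 reads it in endosomes, and both routes lead to the phosphorylation of IRF3 and IRF7, which switch on interferon genes such as IFNB1. Secreted interferon then raises many of the same sensors again. Inhibitors of DNA methylation are known to allow transcription of repeated elements in tumor cells, and RNA from these can pair into double strands, while ADAR edits such RNA and weakens its recognition.

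Expression was measured on 8 one-color arrays (Agilent SurePrint G3 Human GE 8x60K Ver 2.0, probe positions on hg19), each from 1 of 4 stable clones of the colorectal cancer line HCT116. CONT1 and CONT2, the control clones, carried the control plasmid pcDNA6.2-GW/EmGFP-miR-neg, TET1-KD1 and TET1-KD2 carried a vector with an artificial miRNA against TET1, a different one in each, and all 4 had been selected with G418. Each clone was measured untreated and after 1 µM 5-aza-dC (5-aza-2'-deoxycytidine, a DNA methyltransferase inhibitor) for 72 h, so each condition holds n = 2 clones and each clone 1 array per condition. Clones and treatments follow the array titles, since another field of the labels reads mock on every control array and 5-aza-dC on every knockdown array. The p-values describe the spread between these clones.

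Levels are log2 normalized intensities and belong to 1 probe each, so they are compared between arrays and not between genes. The lowest level that counted as above background was 3.98 to 4.61 across the arrays. A response is the treated minus the untreated level of the same clone, and a gene was called changed at an adjusted p below 0.05 in limma. Where a gene has several probes, its brightest tested probe stands for it. In the bulk RNA of a clone, fewer cells that express a gene and less of its RNA per cell cannot be told apart.

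The 6 epithelial markers were above background on all 8 arrays. Of the 7 leukocyte markers on the array, 3 were above background on all 8 and NKG7 on none, and CD14 rose in both kinds of clone. Their summed intensity was 2790 to 4010 in the untreated control clones, 3660 to 5670 in the treated ones, 3080 to 3450 in the untreated knockdown clones and 2770 to 3320 in the treated ones. For 5 fibroblast markers, of which 1 was above background on all arrays and 2 (COL1A2, LUM) on none, these sums were 342 to 372, 672 to 902, 345 to 451 and 643 to 788, and their part in the results was not tested. Without treatment TET1 itself read 9.70 and 9.75 in CONT1 and CONT2 against 8.65 and 9.41 in TET1-KD1 and TET1-KD2, lower in both of the latter. The difference of -0.69 ± 0.289 (SE) was not called (adjusted p = 0.61), nor were those of its other 2 probes at -0.98 and -2.14. The -2.14 is taken against knockdown levels of 2.19 and 2.85 that were not well above background, so it is not a measured size. The 2 arrays of treated control clones were on a slide of their own, scanned 230 days after the slide with the other 6 arrays. RNA spike-ins were read in log2 intensity before the arrays were scaled. On that slide they read lower by 0.99 at a level of 9.36 and by 0.36 at a level of 13.30. The 75th percentiles used for scaling were 395.5 and 476.1 there and 546.3 to 623.7 on the other slide. Scaling thus raised these 2 arrays against the others, and the offsets left in the scaled levels were not computed. Slide and treatment therefore cannot be told apart in the control response, or in its difference from the knockdown response, while the knockdown response lies within 1 slide.

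The stretches in front of the genes differ in a kind of site that the pathway itself can use, and they are shown to let the levels be read beside them. Sequences came from RefSeq on GRCh38.p14, which lists DDX58 as RIGI, and 7 of the 10 genes had a promoter there; DHX58, IRF3 and IRF7 did not. Each line runs 5′ to 3′ along the gene, from 200 bases before its transcription start to 30 bases after, and capitals mark places where GAAA is repeated after 2 bases on either strand (TTTC on the other), the spacing of an interferon-stimulated response element. IFIH1, TLR3 and EIF2AK2 are shown because they hold this repeat, and DDX58 because it does not.
IFIH1, chr2:162318655-162318884, minus strand: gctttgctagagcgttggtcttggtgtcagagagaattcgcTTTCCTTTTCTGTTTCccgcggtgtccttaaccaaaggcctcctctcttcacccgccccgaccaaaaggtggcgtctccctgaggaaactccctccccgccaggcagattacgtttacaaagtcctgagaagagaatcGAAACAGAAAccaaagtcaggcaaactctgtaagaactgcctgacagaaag
TLR3, chr4:186068956-186069185, plus strand: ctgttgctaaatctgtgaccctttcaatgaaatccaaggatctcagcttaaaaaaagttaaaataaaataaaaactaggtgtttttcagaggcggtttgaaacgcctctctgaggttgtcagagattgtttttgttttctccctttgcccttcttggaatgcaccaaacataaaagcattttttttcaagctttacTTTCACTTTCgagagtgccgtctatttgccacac
EIF2AK2, chr2:37156951-37157180, minus strand: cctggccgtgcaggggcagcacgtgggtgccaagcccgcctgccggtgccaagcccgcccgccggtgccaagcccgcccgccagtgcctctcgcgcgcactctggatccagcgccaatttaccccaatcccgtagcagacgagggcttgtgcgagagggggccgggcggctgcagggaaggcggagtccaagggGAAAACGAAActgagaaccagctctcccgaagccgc
DDX58 (RIGI), chr9:32526167-32526396, minus strand: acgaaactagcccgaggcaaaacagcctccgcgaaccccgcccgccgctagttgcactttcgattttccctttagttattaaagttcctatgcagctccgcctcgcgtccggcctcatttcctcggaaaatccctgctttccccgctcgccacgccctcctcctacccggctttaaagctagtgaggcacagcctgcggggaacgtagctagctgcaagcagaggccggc
The repeat occurred 3 times in IFIH1, with 2 matches that overlap, and 1 time each in TLR3 and EIF2AK2, beginning 4 and 6 bases before the start. Of all 35116 promoters of 300 bases in that table, 3.57% hold it. RIGI, MAVS, IFNB1 and ADAR held none at this exact spacing. No other site was searched for, so its absence does not mean that a promoter lacks sites for the pathway. In IFNB1 the stretch gaaaactgaaa, for example, repeats GAAA at another gap and was not counted. The 300 bases held 34 CpG dinucleotides, the target of DNA methylation, in MAVS, 30 in EIF2AK2, 27 in RIGI, 12 in IFIH1, 5 in TLR3 and 1 in IFNB1, against a median of 14 over all promoters. These matches describe the letters only.

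In the control clones, 5-aza-dC changed 5 of the 9 tested genes: IRF7, DHX58 and MAVS (by its brightest probe) rose, and EIF2AK2 and TLR3 fell. The share called among all 19687 tested genes was 41.8% (20.5% up, 21.3% down), so 5 of 9 is read against a large background. In the knockdown clones 2 genes changed, IRF7 upward and TLR3 downward, where 12.5% of all genes were called (9.44% up, 3.09% down). The median change over the 9 genes was -0.01 in the control and 0.17 in knockdown clones, and over all genes -0.05 and -0.06.

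**Figure D1:**
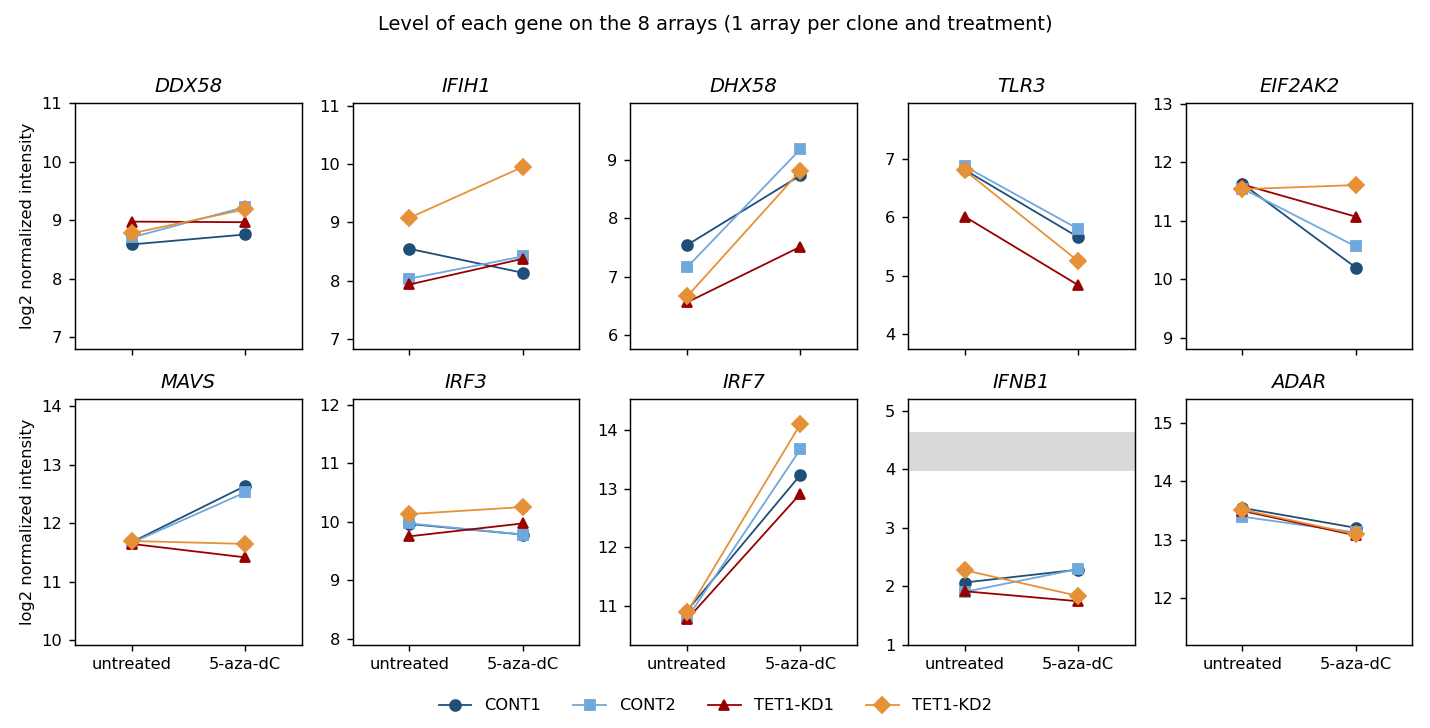
Level of each of the 10 genes on the 8 arrays (y axis, log2 normalized intensity; every panel spans the same range), untreated and after 5-aza-dC, with a line joining the 2 arrays of a clone. IRF7 rises in all 4 clones, TLR3 falls in all 4, and IFNB1 stays under the gray band, the lowest level above background on the arrays (3.98 to 4.61).

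IRF7, the factor that amplifies interferon transcription, had the largest response of the 9 genes. Its probe (A_24_P378019, chr11:612643-612702, minus strand) read 10.92, 10.79, 10.77 and 10.89 in untreated CONT1, CONT2, TET1-KD1 and TET1-KD2, and 13.24, 13.68, 12.92 and 14.11 after 5-aza-dC. The 4 untreated clones lay within a narrow range and every treated clone stood far above them. The rise was 2.61 ± 0.387 (SE, n = 2 clones) on the log2 scale in control clones, a 6.09-fold increase (adjusted p = 0.0034), and 2.68 ± 0.387 in knockdown clones, a 6.43-fold increase (adjusted p = 0.00759). The difference between the kinds of clone was 0.08, with a 95% interval from -1.25 to 1.40 (adjusted p = 0.945). A difference of either sign within that interval is therefore not excluded. Within the slide that holds all untreated and treated knockdown arrays, the rise there had an adjusted p of 0.0168.

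IRF3, the partner of IRF7 that is present before infection, showed no such rise. Its brightest probe (A_33_P3327333, chr19:50164025-50164084, minus strand) read 9.96, 9.97, 9.75 and 10.13 untreated and 9.78, 9.78, 9.97 and 10.25 treated, in the same order of clones. Both control clones were lower and both knockdown clones higher after treatment, with changes of -0.19 (adjusted p = 0.454) and 0.17 (adjusted p = 0.601). The other probe (A_23_P27677, whose listed span of chr19:50164080-50165258 is longer than the probe) read 9.98, 9.97, 9.71 and 10.05 untreated and 9.15, 9.13, 9.96 and 10.17 treated. By this probe IRF3 fell in control clones by 0.83 ± 0.174 on the log2 scale (adjusted p = 0.0116), so the probes differ in call. That fall was -0.26 (adjusted p = 0.196) once each array's trend with probe GC content was taken out, and it was not called without untreated CONT1 (adjusted p = 0.0651), untreated CONT2 (0.0645) or treated CONT2 (0.051).

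**Figure D2:**
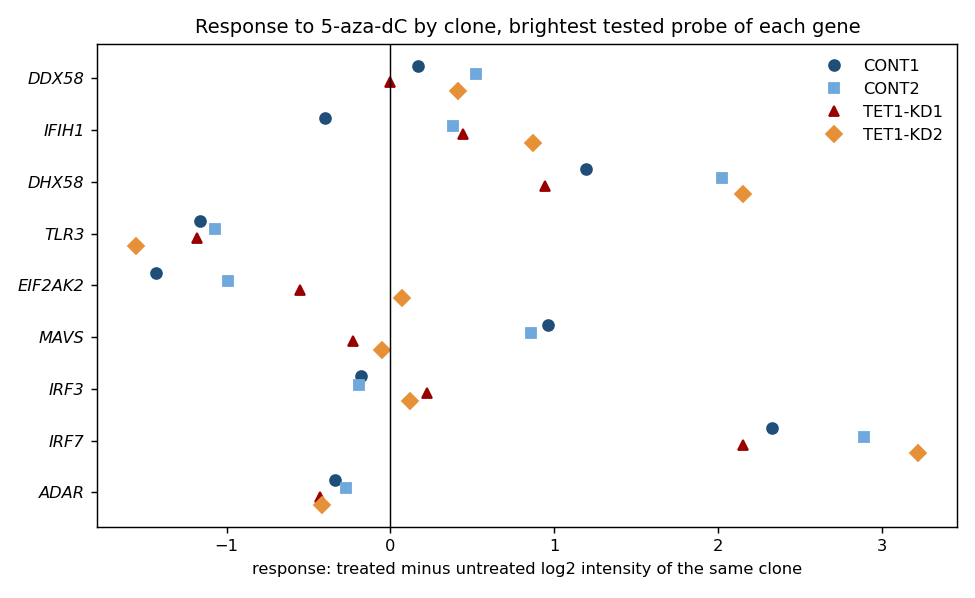
Response of each clone to 5-aza-dC (x axis, treated minus untreated log2 intensity) for the 9 tested genes, each by its brightest tested probe. IRF7 responses run from 2.15 to 3.22, and for MAVS the control clones (0.96 and 0.86) stand apart from the knockdown clones (-0.23 and -0.05).

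Among the cytoplasmic sensors, DHX58 was the one whose level moved most. LGP2, its product, lacks the signaling domains of the other 2 and modulates them. The probe (A_23_P38346, chr17:40253459-40253518, minus strand) read 7.54, 7.16, 6.56 and 6.66 untreated and 8.73, 9.18, 7.51 and 8.81 treated. Each clone rose, and the treated TET1-KD1 array was about as high as untreated CONT1. The change was 1.60 ± 0.426 (3.04-fold, adjusted p = 0.0261) in control clones and 1.55 ± 0.426 (2.93-fold) in knockdown clones, where it was not called (adjusted p = 0.0695). The test of the difference gave -0.05 (95% interval -1.51 to 1.40, adjusted p = 0.967). The control call was lost without CONT1 untreated (1.79, adjusted p = 0.0703), CONT2 untreated (1.41, 0.122), CONT1 treated (1.83, 0.0587) or CONT2 treated (1.38, 0.118), and the knockdown change was called without treated TET1-KD1 (2.20, adjusted p = 0.00884).

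DDX58 encodes RIG-I, which binds short RNA with a 5′ triphosphate end. Its brightest probe (A_33_P3372910, chr9:32455398-32455457, minus strand) read 8.59, 8.71, 8.98 and 8.78 untreated and 8.76, 9.23, 8.97 and 9.19 treated. The treated and untreated knockdown arrays overlapped in level, and neither the control change of 0.34 ± 0.208 (adjusted p = 0.226) nor the knockdown change of 0.20 (adjusted p = 0.58) was called. The dimmer probe (A_33_P3418170, chr9:32455728-32455787) rose in every clone, also in TET1-KD1, where the brightest did not. Its changes were 0.78 ± 0.329 (adjusted p = 0.101) and 0.52 (adjusted p = 0.361). With the clone as a block, the control change at that probe was called (adjusted p = 0.0217).

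IFIH1 encodes MDA5, the sensor of long double-stranded RNA, and carries the most GAAA repeats of the promoters printed above. Its probe (A_23_P68155, chr2:163128806-163128865, minus strand) read 8.55, 8.04, 7.94 and 9.08 untreated and 8.14, 8.42, 8.38 and 9.95 treated. CONT1 went down and the other 3 clones went up, and TET1-KD2 was the highest clone in both states. The clones of a kind spread widely, so the standard error was 0.585, and the changes of -0.01 in control clones (95% interval -1.43 to 1.41, adjusted p = 0.99) and 0.65 in knockdown clones (-0.76 to 2.07, adjusted p = 0.525) were not called.

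TLR3, the endosomal receptor, moved against IRF7 and DHX58. Its probe (A_23_P29922, chr4:187005890-187005949, plus strand) read 6.81, 6.87, 6.01 and 6.80 untreated and 5.66, 5.80, 4.84 and 5.25 treated. Each treated array was below each untreated array. The fall was -1.11 ± 0.286 in control clones, 2.16-fold lower (adjusted p = 0.0235), and -1.36 ± 0.286 in knockdown clones, 2.57-fold lower (adjusted p = 0.0312), with a difference between them of -0.25 (95% interval -1.23 to 0.73, adjusted p = 0.743). The levels are dim, and with another background correction (normexp) the changes were -0.44 (adjusted p = 0.0778) and -0.60 (adjusted p = 0.0631). The control call was also lost without any 1 of the control arrays (adjusted p = 0.0715 to 0.101). The knockdown call was lost within its own slide (adjusted p = 0.0589), without either treated knockdown array (TET1-KD1 -1.16 and 0.102, TET1-KD2 -1.57 and 0.0727), without untreated TET1-KD2 (-0.97, 0.0797), and without any control array (0.0616 to 0.0655).

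EIF2AK2 encodes PKR, a kinase that halts translation when double-stranded RNA binds it. The brightest probe (A_23_P142750, listed span chr2:37336386-37341880, minus strand) read 11.63, 11.55, 11.62 and 11.54 untreated and 10.20, 10.56, 11.07 and 11.61 treated. Untreated clones were nearly level, both treated control clones were below all of them, and of the treated knockdown clones only TET1-KD1 was. The control change was -1.21 ± 0.228, 2.32-fold lower (adjusted p = 0.00794, and 0.0751 by the test that the methods name), and the knockdown change was -0.24 ± 0.228 (adjusted p = 0.545). The difference of 0.97 ± 0.322 between them was not called (adjusted p = 0.135). The other probe (A_33_P3224858, chr2:37368778-37368837) gave -1.05 ± 0.215 (adjusted p = 0.0108) and -0.36 (adjusted p = 0.335), the same order. Its control call was lost without untreated CONT1 (adjusted p = 0.0618), untreated CONT2 (0.0541) or treated CONT1 (0.0534).

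ADAR, whose editing makes double-stranded RNA less visible to MDA5, changed little in level. Its probe (A_24_P362317, chr1:154554730-154554789, minus strand) read 13.54, 13.39, 13.49 and 13.51 untreated and 13.20, 13.12, 13.07 and 13.09 treated. All 4 treated arrays were below all 4 untreated arrays, by little. Changes of -0.30 ± 0.14 (adjusted p = 0.127) and -0.43 ± 0.14 (adjusted p = 0.108) were not called. On the spike-in scale the control change was -0.90 (adjusted p = 0.00355), and with the GC trend taken out it was -0.57 (adjusted p = 0.0247).

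The probes named MAVS did not move as 1. The brightest (A_33_P3244021, chr20:3847884-3847943, plus strand) read 11.68, 11.67, 11.65 and 11.70 untreated and 12.64, 12.53, 11.42 and 11.65 treated. Both control clones rose above every other array, and both knockdown clones stayed near their start. The control change was 0.91 ± 0.151, a 1.88-fold rise (adjusted p = 0.00505), the knockdown change -0.14 ± 0.151 (adjusted p = 0.596), and the difference between them -1.05 ± 0.214 (adjusted p = 0.0459), where 5.27% of all genes were called (3.63% up, 1.64% down). MAVS was the only member called in that test. With the clone as a block its adjusted p was 0.0566, and it was also not called without any 1 of the 8 arrays (0.0702 to 0.169). On the spike-in scale the control change was 0.37 (adjusted p = 0.106) and the difference -0.54 (adjusted p = 0.191).

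The probe nearest the start of the gene (A_33_P3272527, chr20:3835323-3835382) went the other way. It read 8.44, 8.28, 8.08 and 8.40 untreated and 6.71, 6.84, 7.98 and 8.11 treated, so both treated control clones lay well below the other 6 arrays. The control change was -1.58 ± 0.173, 3.0-fold lower (adjusted p = 0.00112), the knockdown change -0.20 (adjusted p = 0.521), and the difference 1.39 ± 0.245 (adjusted p = 0.0336). The difference was 0.85 (adjusted p = 0.0707) with normexp, and it was not called without any 1 array but untreated TET1-KD2 (0.0687 to 0.14). The file ties this probe to another transcript record than the other 6. The remaining 5 probes lie between chr20:3855582 and chr20:3856770, and none was called, with changes of -0.66 to -0.14 in control clones and -0.57 to -0.33 in knockdown clones. Averaged over its 7 probes MAVS changed by -0.34 (adjusted p = 0.185) in control clones, so no direction for the gene can be given. Which of these probes lie in exons shared by all transcripts is not analysed here, since no annotation on hg19 was used.

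**Figure D3:**
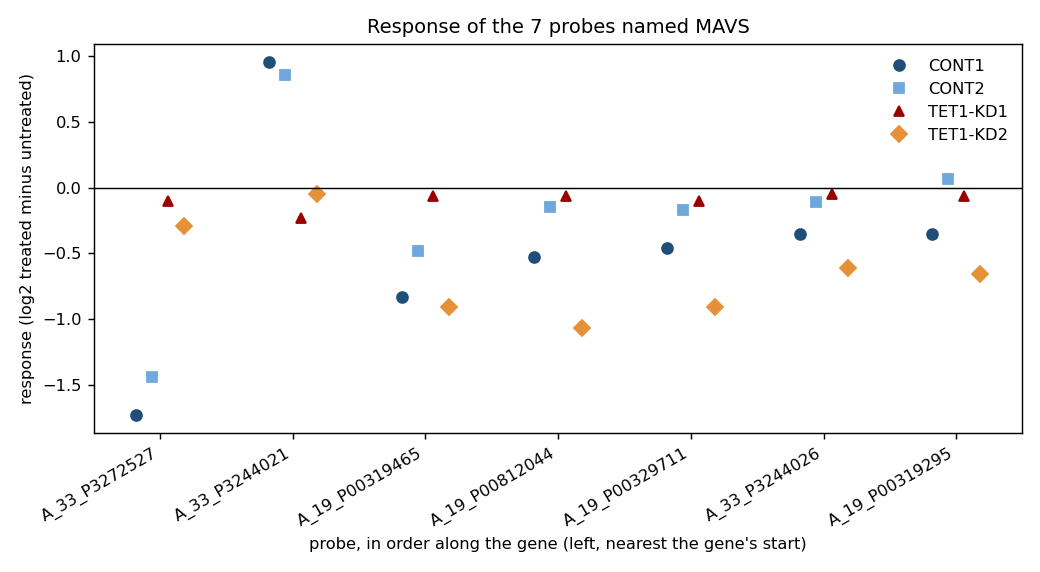
Response of each clone (y axis, treated minus untreated log2 intensity) at the 7 probes named MAVS, in their order along the gene on the x axis. In the control clones the first probe fell (-1.73 and -1.44) and the second rose (0.96 and 0.86), while the knockdown clones stayed between -0.29 and -0.05 at both.

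IFNB1 encodes interferon beta, the product that this pathway is known for. Its probe (A_23_P71774, chr9:21077535-21077594, minus strand) read 2.06, 1.90, 1.91 and 2.27 untreated and 2.28, 2.29, 1.74 and 1.83 treated. None of these levels was well above background, in treated clones or in untreated ones, so no fold change can be given. A level below about 4 on this scale would not have been seen.

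Before treatment no difference between the kinds of clone was called at these genes. None of the 9 tested was called, none had an unadjusted p below 0.05 in limma, and among all genes 0.0203% were called (0.0102% up, 0.0102% down). By the brightest probes the differences, knockdown minus control, ran from -0.74 for DHX58 (95% interval -1.77 to 0.29) to 0.23 for DDX58 (-0.28 to 0.73). For IRF7 the difference was -0.02 (-0.96 to 0.91).

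The knockdown clones differed from each other in both states, with each gene counted by its brightest tested probe. Untreated TET1-KD2 read higher than untreated TET1-KD1 at 7 of the 9 tested genes, by a median of 0.10, where 49.6% of all genes read higher. After treatment TET1-KD2 read higher than TET1-KD1 at all 9 tested genes, by a median of 0.41, where 49.5% of all genes read higher, with a median of 0.00. The treated gap was widest for IFIH1, DHX58 and IRF7 in the levels given above, and for ADAR the levels were 13.09 and 13.07. The count for MAVS depends on the probe. At its probes from chr20:3855582 to chr20:3856770 treated TET1-KD2 read lower than treated TET1-KD1, for example 9.94 against 10.30 at A_19_P00319465. At A_33_P3272527 it read higher (8.11 against 7.98), as at the brightest probe. CONT2 read higher than CONT1 at 6 of the 9 genes, by a median of 0.28, where 48.6% of all genes did. Each side of these comparisons is 1 array, so they have no test.

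**Figure D4:**
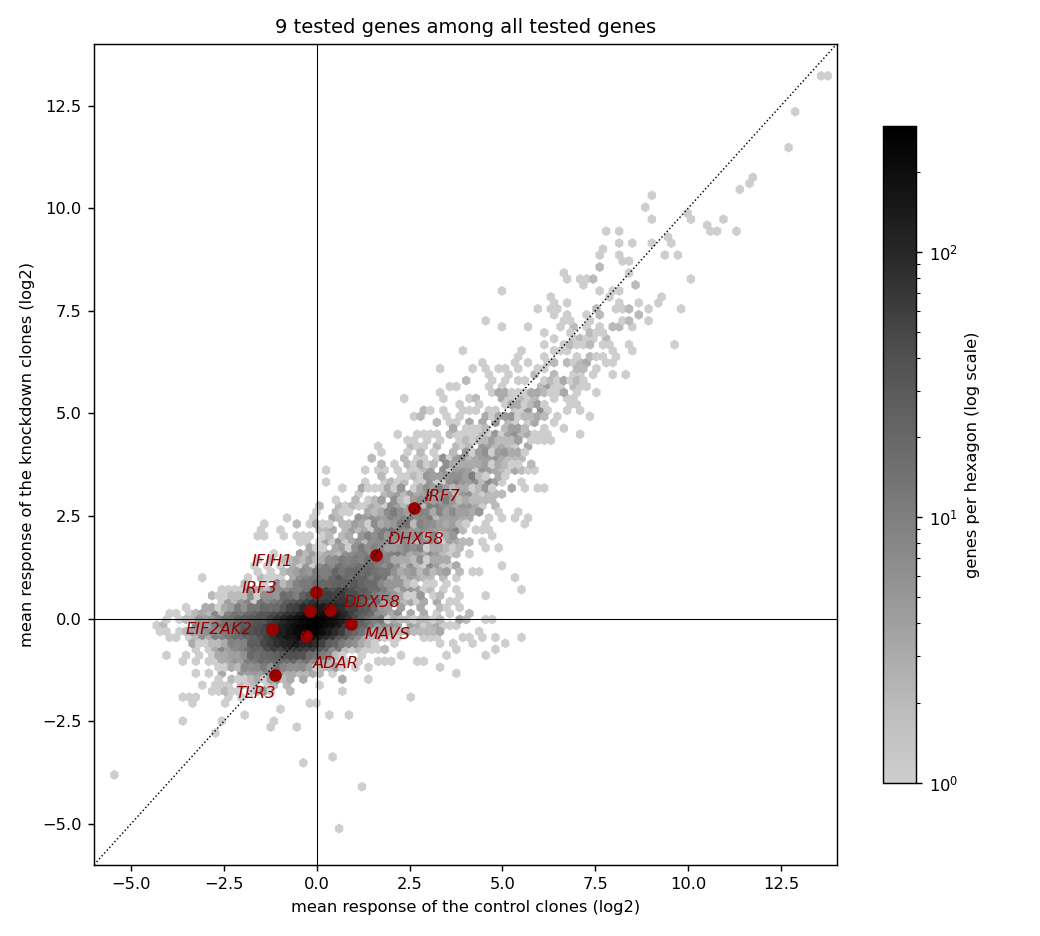
Mean response of the control clones (x axis, log2) against that of the knockdown clones (y axis, log2) over the 19687 tested genes, shaded by their density, with the 9 genes in red and the line of equal response dotted. IRF7 and DHX58 lie near the line, EIF2AK2 and MAVS lie off it.

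Of 16 other sensors of foreign nucleic acid 9 were tested, 2 rose and 2 fell in control clones, and 2 rose in knockdown clones. The first count is near the 41.8% called among all genes in control clones, and the share in knockdown clones was 12.5%. MB21D1 encodes cGAS, the cytoplasmic DNA sensor, and read 3.68, 4.28, 3.23 and 4.13 untreated and 8.02, 8.33, 7.05 and 7.89 treated. It was not above background in any untreated clone and clearly so in every treated one, so it was tested only because of the treated arrays. The rise was at least 14.3-fold in control clones and at least 8.42-fold in knockdown clones. The limma adjusted p of 0.00081 and 0.00245 belong to the fitted changes of 4.2 and 3.79, not to these bounds. Those changes are taken against levels not well above background. NLRP1, an inflammasome sensor, rose by 1.92 and 2.62 on the log2 scale (adjusted p = 0.00146 and 0.000873). TMEM173 encodes STING, the partner of cGAS, and changed by -0.74 (adjusted p = 0.123) and -0.06 (adjusted p = 0.931). The helicases DHX9 and DDX41 fell in control clones, by 0.97 and 0.69 on the log2 scale.

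In the list of signaling genes between the sensors and the interferon genes, 36 of 37 were tested, and 4 rose and 7 fell in control clones, with a median of -0.24, where 41.8% of all genes were called. With the clone as a block 16 of the 36 were called there, against 50.4% of all probes. In the knockdown clones 1 rose and 1 fell, with a median of -0.10, where 12.5% of all genes were called. NFKB1, a subunit of NF-kappaB, fell in both, by 0.86 and 0.81 on the log2 scale (adjusted p = 0.00729 and 0.0244), and ATF2, which binds the IFNB1 enhancer, rose in both by 0.56 and 0.79 (adjusted p = 0.0273 and 0.0223). In control clones TBKBP1, a TBK1 adaptor, fell by 1.01 (adjusted p = 0.00504) and TOMM70A, a mitochondrial import receptor that binds MAVS, by 0.93 (adjusted p = 0.0114). IRF2, a repressor of interferon genes, was above background in both untreated control clones and in neither treated one, at least 1.36-fold lower (adjusted p = 0.00363). TBK1, the kinase of IRF3, read 6.24 in untreated CONT1 and 9.90 to 10.55 on the other 7 arrays, and its control change of 1.90 was not called (adjusted p = 0.195). IKBKE, the related kinase, was not tested. TICAM1, the adaptor of TLR3, changed by -0.59 (adjusted p = 0.0944) and 0.31 (adjusted p = 0.463) by its brightest probe, while another of its probes fell in control clones by 0.91 (adjusted p = 0.00975).

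Among 20 interferon genes 16 were on the array and 4 were tested. IFNE, an epithelial interferon, was below background in the untreated clones and was tested only because of the treated arrays. It rose at least 3.50-fold in control clones (adjusted p = 0.00291) and at least 2.57-fold in knockdown clones (adjusted p = 0.00604). These p-values belong to the fitted changes, not to the bounds. IFNA10 read 2.14, 1.96, 1.98 and 2.35 untreated and 5.77, 7.06, 1.81 and 1.84 treated. It was above background in the treated control clones and in no other, a rise of at least 4.28-fold (adjusted p = 0.000626) on the slide that holds only these 2 arrays. IFNA10 was tested only because of these 2 arrays, and its adjusted p belongs to the fitted change, not to the bound. The alpha interferons are near-identical copies, so the probe may read others of the family. IFNA4, another of them, read 5.02 and 5.14 in untreated CONT1 and CONT2 and 5.77 and 2.56 treated. The clones thus moved in opposite directions, and the treated CONT2 level was not well above background. The control change of -0.92 was not called (adjusted p = 0.461).

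**Figure D5:**
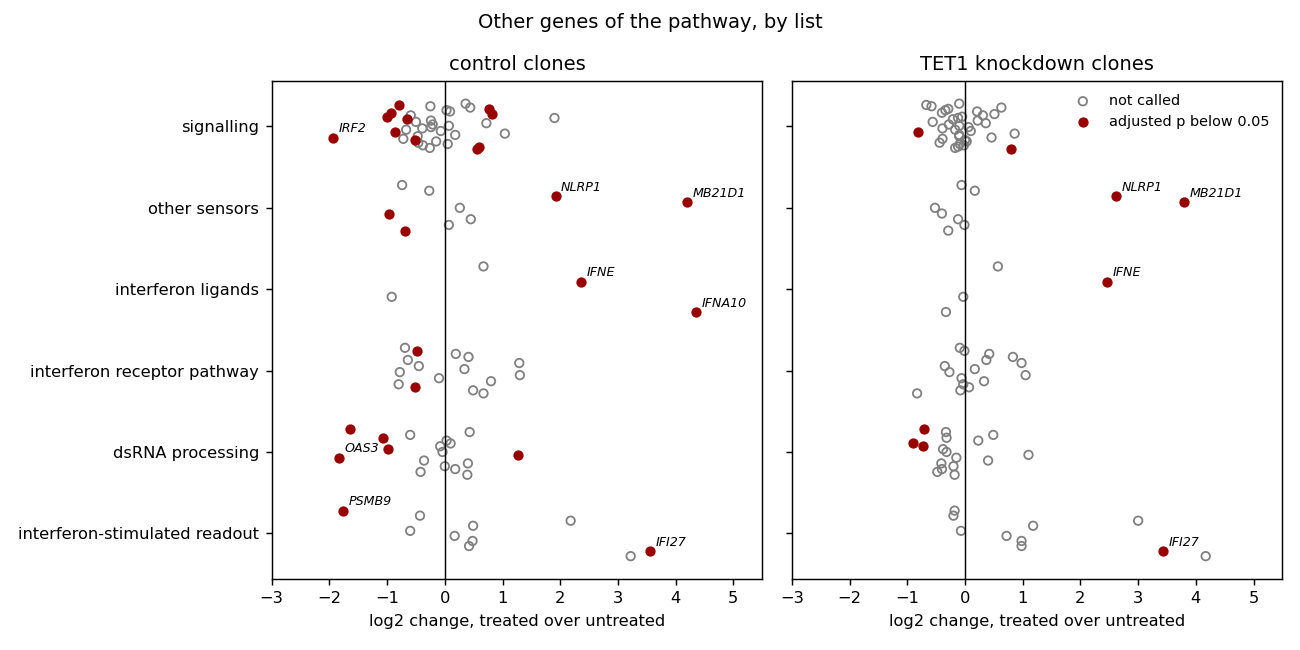
Change after 5-aza-dC (x axis, log2 treated over untreated) of the tested genes in 6 lists of the pathway, in control clones (left) and knockdown clones (right), filled where the adjusted p was below 0.05. Called genes beyond 1.7 in size are named, and MB21D1, NLRP1, IFNE and IFI27 rise on both sides.

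All 16 genes of the interferon receptor pathway were tested, with 2 falls and no rise in control clones, where 41.8% of all genes were called. IFNGR1 fell by 0.51 and TYK2 by 0.49 on the log2 scale. With the clone as a block 9 of the 16 were called there, near the 50.4% of all probes called with the block. In the knockdown clones limma called none, 1 had an unadjusted p below 0.05, and 1 was called with the block. There 12.5% of all genes were called without the block and 14.8% of all probes with it. IRF9, the DNA-binding part of the factor that answers type I interferon, changed by 1.30 (adjusted p = 0.126) and 1.05 (adjusted p = 0.311), and neither change was called.

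Of 15 genes known to be induced by interferon 10 were tested, with medians of 0.45 in control clones and 0.98 in knockdown clones. With the clone as a block 4 were called in control clones, against 2 without, and 2 against 1 in knockdown clones. Without the block 41.8% of all genes were called in control and 12.5% in knockdown clones. With it the shares were 50.4% and 14.8% of all probes. IFI27 rose by 3.56 (adjusted p = 0.0166) and 3.43 (adjusted p = 0.048) on the log2 scale, and PSMB9, an immunoproteasome subunit, fell by 1.76 in control clones (adjusted p = 0.0163). ISG15 changed by 0.49 (adjusted p = 0.298) and 1.18 (adjusted p = 0.083). MX1, an antiviral GTPase, read 5.92, 4.97, 3.83 and 5.46 untreated and 7.41, 7.85, 5.29 and 10.00 treated, higher in each clone after treatment but with too wide a spread to be called (2.18 and 3.0, adjusted p = 0.264 and 0.24). The 3.83 of untreated TET1-KD1 was below 4.19, the lowest level above background on that array, so the knockdown change rests in part on it. TET1-KD2 read higher than TET1-KD1 at 9 of these 10 genes already without treatment, by a median of 0.99. After treatment it also read higher at 9 of the 10, by a median of 1.82. Among all genes 49.6% and 49.5% read higher in these states, and each side is 1 array.

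Of 19 genes that process or cut double-stranded RNA or clear nucleic acids 17 were tested, with 1 rise and 4 falls in control clones and 3 falls in knockdown clones, where 41.8% and 12.5% of all genes were called. OASL rose by 1.27 (adjusted p = 0.0315) in control clones, while OAS3, which makes the activator of RNase L, fell by 1.84 (adjusted p = 0.0439). TREX1, the exonuclease that removes cytoplasmic DNA, read 10.95, 10.73, 10.64 and 10.73 untreated and 9.18, 9.21, 9.96 and 10.00 treated. All 4 clones were lower, with falls of 1.65 (adjusted p = 0.000547) and 0.71 (adjusted p = 0.0305) on the log2 scale. SAMHD1 and RNASEH2A fell in control clones by 1.07 and 0.99, and RNASEH2B and RNASEH2C fell in knockdown clones by 0.72 and 0.90.

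Over the 8 arrays the genes whose level ran most like that of IRF7, the gene of the widest range here, were CAMP, VSTM2L and PRSS38 (Pearson's r = 0.996 each) and KIRREL3 and FAM75A3 (0.995), among 19678 genes compared. The lowest levels of these 5 genes were 2.05 to 2.62, below the background of the arrays, so r and its order rest in part on values that were not well above background. All points share the 4 clones and the 2 treatment states, so r describes mainly the step between them.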

How the data were processed

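Total RNA of each clone was labeled with 1 dye and hybridized to 1 array. The authors deposited scanner files with spot intensity values as Agilent Feature Extraction 10.7.3.1 wrote them, background-subtracted and flagged. They also deposited a table of intensities of the same arrays, whose normalization is not given in the sources used here. Scaled in the same way, that table was used as an alternative. It gave nearly the same counts (5226 probes up and 6174 down in the control response, against 5233 and 6168). Here each of 58717 spots that are no controls was divided by the 75th percentile of its array, multiplied by the geometric mean of those percentiles, floored at 1 and put on the log2 scale. Flagged spots were left out (no spot was saturated) and repeated probes averaged. A probe was tested if at least 0.5 of its spots were well above background on both arrays of 1 condition or more (27286 of 50599 probes). The number of arrays limits the precision. Tests were 2-sided in limma 3.58.1 (R 4.3.3), 1 fit of 4 conditions over 8 arrays, with Benjamini-Hochberg adjustment over all tested probes and adjusted p below 0.05 as the threshold. A bound for a gene below background in 1 group divides the bright group's mean by the dim group's mean of, per array, the higher of its own value and the lowest level above background. An adjusted p beside a bound tests the fitted change, not the bound. The same clone number marks 1 clone untreated and treated, as the titles give it. Deviations of the same clone correlated at 0.198 (control) and 0.476 (knockdown), and the clone was a block in an alternative. Alternatives covered background correction, normalization, filters, test, GC trend, spike-in scale, slide, probe choice and left-out arrays. The named genes were the 10 genes, every probe of each, TET1, TBK1, IKBKE, TICAM1, and from each list up to 3 of the largest changes among the genes called in a contrast. DDX41, TMEM173, IFNA4, IRF9, ISG15, MX1, SAMHD1 and RNASEH2A were named after their values were seen. Genes and lists were chosen with earlier results of these data known, and the code was tested on simulated data.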

Additional observations from a re-analysis of the deposited data

Results flagged for a closer look

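The test of the difference in response to 5-aza-dC between knockdown and control clones was passed at 4 probes of the genes and lists examined. By brightest probe it called 1 of the 9 members, 1 of 36 signaling genes, 1 of 4 interferon genes and none in the other lists. Among all genes 5.27% were called, so the count is not read as a result about these genes. At MAVS probe A_33_P3244021 the knockdown minus control response was -1.05 (adjusted p = 0.0459) and at MAVS probe A_33_P3272527 it was 1.39 (adjusted p = 0.0336), opposite in sign within 1 gene name. For IRF2 it was 2.40 (adjusted p = 0.0319), with levels of 4.81, 5.06, 3.85 and 4.32 untreated and 3.37, 2.64, 4.65 and 4.45 treated, not well above background in the treated control and the untreated knockdown clones, and the difference was not called with the clone as a block. For IFNA10 the fitted value was -4.70 (adjusted p = 0.0143), but its probe was above background only in the treated control clones, so that value is taken against levels near 2 that were not well above background and is not a measured size. In all 4 the treated control clones are the arrays of the slide of their own, so slide and treatment cannot be told apart here.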

How the results depend on the processing

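The numbers of the 9 genes called in the control clones and between untreated clones stayed within 1.5 times their values of 5 and 0 in every setting that kept all arrays. In the knockdown clones the number fell from 2 to 1 with normexp, without a filter on dim probes, with the 4 arrays of that comparison alone and within slide 1, and to 0 with the methods' t-test, which called 4 genes in the control clones and 0 between untreated clones. The number for the difference in response fell from 1 to 0 with quantile normalization, no filter, the GC trend taken out (with or without the block), the spike-in scale and the mean of all probes. With the clone as a block, the pairing that the titles give, the numbers were 5 in the control clones, 2 in the knockdown clones and 0 for the difference. With 1 array left out they were 3 to 5 for the control response, 1 to 2 for the knockdown response, and 0 for the untreated comparison and the difference. The direction of MAVS in the control clones turned when all its probes were averaged (-0.34). The cause of these changes was not tested. No fit could be made for the control response within 1 slide, for the untreated comparison with the block, or for the difference in the smaller fits and the t-test. IRF7 in the control clones was called in every setting. The methods' t-test also left uncalled EIF2AK2 and DHX58 in the control clones (adjusted p = 0.0751 and 0.09) and IRF7 and TLR3 in the knockdown clones (0.299 and 0.364). In the control clones that test called IRF3 (-0.19, adjusted p = 0.0312), which limma did not call by the brightest probe. Scaling moves all probes: the control response was called up at 5233 and down at 6168 probes (median -0.08), against 4011 and 8842 (-0.32) on the spike-in scale, 4557 and 7496 (-0.20) with quantile normalization, and 5718 and 4815 (0.02) with normexp. Low signal limits TLR3, IRF2, IFNE, IFNA10 and IFNB1, and 2 clones per condition limit every test.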
